A study of Mus musculus with 9 samples.

Results

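Potassium channel genes were followed in RNA from area CA1 of the mouse hippocampus. The family was taken as the rows of the deposited expression table whose symbol begins with Kcn, followed by letters and a digit. Of 96 such rows, 3 antisense rows and the vascular and choroid plexus genes Kcnj8 and Kcnj13 were left out. FPKM is a count of sequenced fragments divided by transcript length and by the mapped fragments of the library. Of the other 91 rows, 63 had a mean of at least 1 FPKM over the 9 libraries, and these 63 are described here, out of 12327 genes tested. The other 28 were below that level, and 2 of them, Kcnq1 and Kcnmb3, were listed at 0 in every library. Just above the limit stood Kcnk6 at 1.06 FPKM, Kcnh5 at 1.18 FPKM and Kcnmb2 at 1.19 FPKM. Just below it stood Kcnk4 at 0.994 FPKM and Kcna5 at 0.791 FPKM.

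The 9 libraries were polyadenylated RNA from C57BL/J6 mice aged 9 to 12 weeks, infected with an adeno-associated virus (AAV), in 3 groups of 3 biological replicates. The trained group carried a short hairpin RNA (shRNA) against H2A.Z and had gone through contextual fear conditioning, a task that pairs a foot shock with the place where it is given. The naive group carried the same hairpin without training. The control group carried a scrambled hairpin. H2A.Z is a histone variant found in nucleosomes around promoters. All groups had received virus, so none shows CA1 without infection. Whether the control mice were trained, the time from training to dissection, the promoter that drives the hairpin and the share of infected cells are not stated in the labels.

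Potassium channels let potassium leave or enter a neuron and so set its resting potential, the shape of its action potential and the interval before the next one. Each channel is built from pore-forming subunits of one gene or of related genes, and many carry auxiliary subunits that set their number at the membrane and their speed. CA1 pyramidal neurons are known for a fast A-type current in their dendrites carried by Kv4 channels, for a slow M current carried by Kv7 channels, and for afterhyperpolarizations carried by calcium-activated channels. Channels named silent Kv form no current alone and modify Kv2 channels.

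Total FPKM lay between 296327 and 442251 over the libraries, and the relative depth, read from the steps between low values, between 0.871 and 1.26. Across the 63 genes, pairs of libraries of the same group correlated at r between 0.986 and 0.995 on the log2(FPKM + 1) scale. H2afz, the gene that encodes the main H2A.Z protein, had 28.5, 23.9 and 25.8 FPKM in trained libraries, 25.1, 27.8 and 28.0 FPKM in naive libraries and 26.1, 28.7 and 26.4 FPKM in control libraries. The groups overlapped, and for both hairpin groups against control the log2 fold change of -0.03 had a 95% interval of -0.17 to 0.11, with a limma adjusted p of 0.844. No loss of the targeted RNA was measured in the whole tissue, and the groups below are those of the library labels.

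Markers of other cell populations differed between the libraries. The summed level of 17 dentate granule cell markers was 208 to 330 FPKM in trained libraries, 276 to 354 FPKM in naive libraries and 154 to 292 FPKM in control libraries. The sum of 11 CA1 pyramidal markers was 425 to 481 FPKM in trained libraries, 416 to 436 FPKM in naive libraries and 432 to 534 FPKM in control libraries. None of these markers was at 0 in any library. In naive against control libraries all 17 dentate markers had an estimate above 0, 11 of them with an unadjusted limma p under 0.05, and the median log2 fold change was 0.57. Of the CA1 markers, 2 of 11 had an estimate above 0 and the median was -0.26. The sum of 15 microglial markers was 397 to 611 FPKM in trained libraries, 398 to 815 FPKM in naive libraries and 306 to 378 FPKM in control libraries. All 15 had an estimate above 0 in naive against control, 9 of them with an unadjusted limma p under 0.05. The median log2 fold change of these markers was 0.53. In trained against control all 15 were above 0 too, at a median of 0.37. No fit took the microglial markers as a covariate. The interneuron sum was 867 to 1009 FPKM in trained libraries, 824 to 890 FPKM in naive libraries and 812 to 1161 FPKM in control libraries. The oligodendrocyte sum was 1315 to 1760 FPKM in trained libraries, 1095 to 1768 FPKM in naive libraries and 1400 to 2171 FPKM in control libraries. For vessel cells it was 94.3 to 103.8 FPKM in trained libraries, 101.7 to 119 FPKM in naive libraries and 87.7 to 112 FPKM in control libraries, and in these 3 lists all groups overlapped. For CA2 and CA3 pyramidal cells the sums were 281 to 385 FPKM in trained, 371 to 436 FPKM in naive and 274 to 332 FPKM in control libraries. Here every naive library was above every control library. Of these 11 markers, 8 had an estimate above 0 in naive against control, 4 with an unadjusted limma p under 0.05. That is 36.4%, where the share of higher genes over all genes was 9.81%. These markers were not used as a covariate either. In bulk tissue, fewer cells of a type and less RNA per cell cannot be told apart.

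Of the subfamilies, the auxiliary subunits held the largest share of the summed FPKM. The 10 auxiliary genes made up 41.5% of it and the 45 pore-forming genes 54.6%, with 3.90% for the 8 silent Kv genes. Kcnab2, a cytoplasmic beta subunit of Kv1 channels, was the highest of all at 215 FPKM, and its relative Kcnab1 had 74.8 FPKM. Kcnip2 at 72.8 FPKM, Kcnip4 at 38.4 FPKM and Kcnip3 at 24.5 FPKM encode calcium-binding partners of Kv4 channels. Kcnmb4, the neuronal beta subunit of the large-conductance calcium-activated channel, had 33.2 FPKM.

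**Figure D1:**
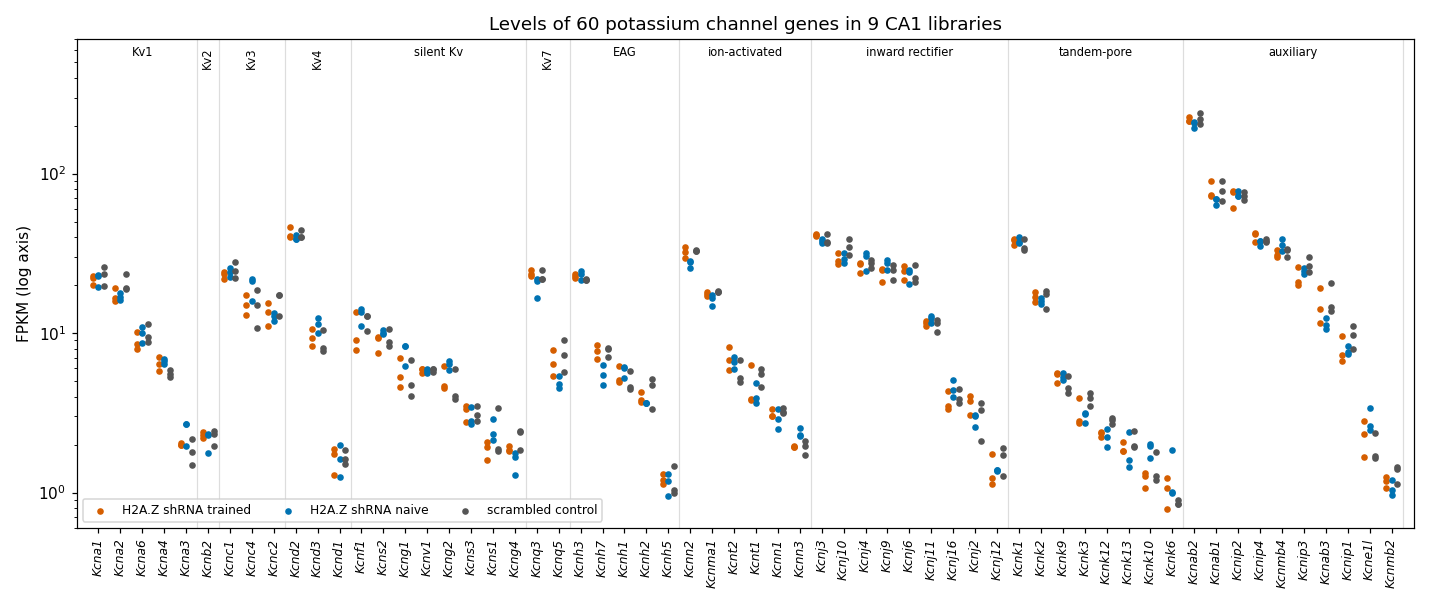
FPKM of 60 of the 63 potassium channel genes, with a log axis, grouped by subfamily and ordered by mean level, with 1 point per library for trained, naive and control mice. Mean levels over the 9 libraries run between 1.06 FPKM for Kcnk6 and 215 FPKM for Kcnab2.

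Among the voltage-gated pores, the M-current genes Kcnq3 and Kcnq5 had 22.2 and 6.27 FPKM. Kcnd2, the pore of the dendritic A-type current, had 41.1 FPKM, Kcnd3 had 9.79 FPKM and Kcnd1 had 1.64 FPKM. Kv3 channels, which allow fast firing, included Kcnc1 at 24.0 FPKM and Kcnc4 at 16.5 FPKM. Kv1 channels, many of them in axons, were led by Kcna1 at 22.2 FPKM, Kcna2 at 18.2 FPKM and Kcna6 at 9.54 FPKM. Kcnb2, a delayed rectifier, had 2.23 FPKM.

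The silent subunits were led by Kcnf1 at 11.7 FPKM, Kcns2 at 9.35 FPKM and Kcng1 at 6.15 FPKM. In the ether-a-go-go (EAG) group Kcnh3 had 22.6 FPKM, Kcnh7 had 6.96 FPKM and Kcnh1 had 5.40 FPKM. Of the channels opened by calcium or sodium, Kcnn2, a small-conductance calcium-activated channel, had 30.7 FPKM, the large-conductance Kcnma1 had 17.3 FPKM and the sodium-activated Kcnt2 had 6.37 FPKM. The inward rectifiers were led by Kcnj3 at 39.1 FPKM, a subunit of the channel that G proteins open, by Kcnj10 at 31.2 FPKM, the main potassium channel of astrocytes, and by Kcnj4 at 27.5 FPKM. The tandem-pore leak channels were led by Kcnk1 at 36.9 FPKM, Kcnk2 at 16.5 FPKM and Kcnk9 at 5.12 FPKM. FPKM is per length of transcript, but the annotation that gave the lengths is not named, so the order of the genes is approximate.

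The median spread between libraries was larger in the family than over all genes. The median SD over the 9 libraries was 0.15 on the log2(FPKM + 1) scale for the 63 genes and 0.10 for all 12327 genes, and within groups it was 0.14 and 0.09, at a median mean level of 9.35 and 9.32 FPKM. The most variable were the silent subunit Kcng1 (SD 0.32), Kcnab3 (0.31), Kcnc4 (0.31), Kcnq5 (0.29) and Kcnf1 (0.27). Among the steadiest were the silent subunit Kcnv1 (SD 0.03), Kcnh3 (0.06), Kcnj3 (0.08) and Kcnd2 (0.08). Kcnv1 had 5.93, 5.59 and 5.95 FPKM in trained libraries, 5.58, 5.81 and 5.97 FPKM in naive libraries and 5.72, 5.94 and 5.92 FPKM in control libraries.

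The naive group set against the control group sets the H2A.Z hairpin without training beside the scrambled hairpin. All fold changes were taken on log2(FPKM + 1), where the added 1 shrinks those of low genes. Kcnh7, Kcnn2, Kcnk12 and Kcnq5 were lower in every naive library than in every control library, and the A-type gene Kcna4 was higher in every one. None of the 63 genes passed a limma adjusted p of 0.05, where 0 of 12327 genes (0%) passed, and the smallest adjusted p in the family was 0.230. At an unadjusted limma p under 0.05 there were 18 genes, where the background over all genes was 15.5%. Of the 63, 11 were lower, or 17.5% (background 5.69%), and 7 were higher, or 11.1% (background 9.81%), and with quantile normalization 15 were lower, or 23.8%, and 5 higher, or 7.94%, where the shares over all genes were then 9.31% lower and 6.78% higher. Estimates were above 0 in 24 of the 63 genes (background 55.1%). In 11 genes the naive libraries all lay below the control libraries, against a background of 8.23%, and in 4 all lay above, against 11.2%. The median log2 fold change was -0.04 in the family and 0.02 over all genes tested. It was -0.00808 in the family and 0.0134 over all genes without control replicate 2, and -0.00761 and 0.0261 with the mean of the dentate markers as a covariate. For 52 of the 63 the 95% interval lay within 1.5-fold either way, and for all 63 within 2-fold.

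Kcnh7, an EAG-related pore, had 6.89, 8.43 and 7.68 FPKM in trained libraries, 5.45, 6.31 and 4.70 FPKM in naive libraries and 7.12, 8.0 and 8.10 FPKM in control libraries. The naive libraries were the 3 lowest of the 9. Its log2 fold change in naive against control was -0.44 (SE 0.10), with an unadjusted limma p of 0.00211 and an adjusted p of 0.230. Kcnn2 had 29.5, 32.2 and 34.6 FPKM in trained libraries, 25.8, 28.3 and 28.0 FPKM in naive libraries and 32.7, 33.1 and 32.6 FPKM in control libraries. Here too the naive libraries were the 3 lowest, at a log2 fold change of -0.25 (SE 0.06) and a limma adjusted p of 0.238.

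Kcnk12, a tandem-pore subunit, had 2.21, 2.38 and 2.40 FPKM in trained libraries, 2.24, 1.92 and 2.49 FPKM in naive libraries and 2.70, 2.86 and 2.94 FPKM in control libraries. No hairpin library, trained or naive, reached the lowest control, at a log2 fold change of -0.25 (SE 0.08) in naive against control and a limma adjusted p of 0.248. Kcnq5 had 5.41, 7.87 and 6.42 FPKM in trained libraries, 4.78, 5.38 and 4.55 FPKM in naive libraries and 5.68, 8.99 and 7.31 FPKM in control libraries, with a log2 fold change of -0.48 (SE 0.16, limma adjusted p 0.253). Its control libraries were far apart. The Kv1 subunit Kcna2 had 15.8, 19.1 and 16.6 FPKM in trained libraries, 17.9, 16.8 and 16.1 FPKM in naive libraries and 19.2, 23.5 and 18.9 FPKM in control libraries, with a log2 fold change of -0.26 (SE 0.10, limma adjusted p 0.282). Further lower estimates with an unadjusted p under 0.05 were -0.32 for Kcng4, -0.16 for Kcnma1, -0.46 for Kcnab3, -0.28 for Kcnk3 and -0.23 for Kcnj10.

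Kcnab3, a beta subunit of Kv1 channels, had 11.5, 19.0 and 14.3 FPKM in trained libraries, 11.3, 10.5 and 12.4 FPKM in naive libraries and 13.7, 20.6 and 14.7 FPKM in control libraries. Replicate 2 was the highest in both the trained and the control group. Kcnma1, the large-conductance calcium-activated pore, had 17.5, 18.0 and 17.2 FPKM in trained libraries, 17.3, 16.6 and 14.7 FPKM in naive libraries and 18.0, 18.0 and 18.4 FPKM in control libraries. The 3 controls were nearly equal, and naive replicate 3 was the lowest of the 9. The silent subunit Kcng4 had 1.84, 1.83 and 1.96 FPKM in trained libraries, 1.30, 1.77 and 1.66 FPKM in naive libraries and 1.84, 2.43 and 2.38 FPKM in control libraries. Kcnk3, an acid-sensitive leak channel, had 2.83, 3.92 and 2.72 FPKM in trained libraries, 3.15, 2.73 and 3.13 FPKM in naive libraries and 3.48, 4.24 and 3.89 FPKM in control libraries. In both genes the trained libraries overlapped the control libraries and the naive libraries lay below them.

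**Figure D2:**
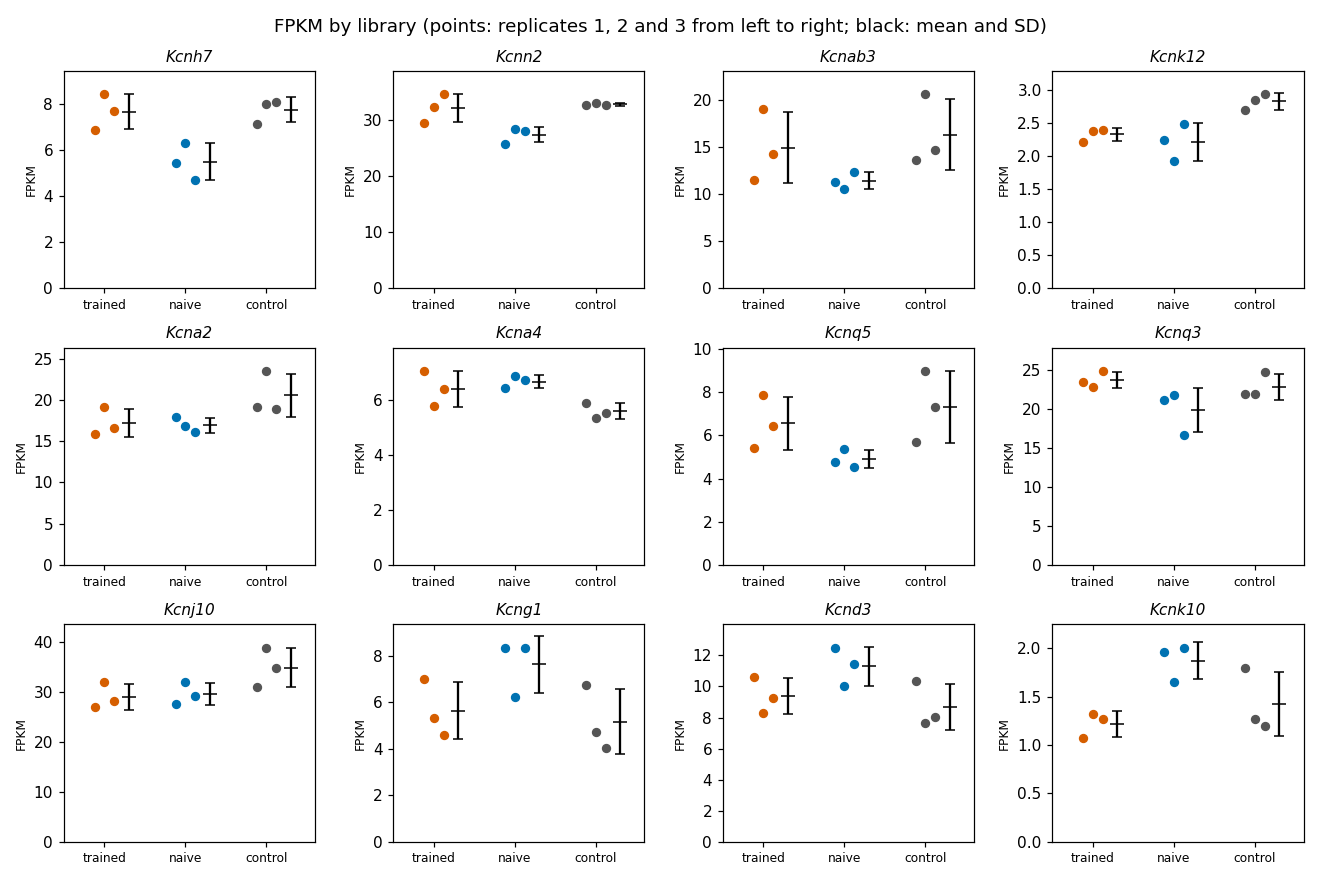
FPKM of 12 potassium channel genes in each of 9 libraries (points) of trained, naive and control mice, with the mean and SD of each group in black; axes start at 0. Kcnk12 is lower in all 6 hairpin libraries than in the 3 controls, and Kcnh7 and Kcnn2 are lower in the 3 naive libraries than in the other 6.

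Of the genes with higher estimates, Kcna4, an A-type Kv1 subunit, had 7.04, 5.76 and 6.37 FPKM in trained libraries, 6.41, 6.86 and 6.70 FPKM in naive libraries and 5.89, 5.34 and 5.52 FPKM in control libraries. All naive libraries were above all control libraries, at a log2 fold change of 0.22 (SE 0.07) and a limma adjusted p of 0.249. Kcng1 had 7.01, 5.34 and 4.59 FPKM in trained libraries, 8.34, 6.23 and 8.35 FPKM in naive libraries and 6.74, 4.72 and 4.03 FPKM in control libraries. Its groups overlapped, and the log2 fold change of 0.50 (SE 0.19, limma adjusted p 0.285) was the largest in the family. Kcnd3 had 10.6, 8.30 and 9.25 FPKM in trained libraries, 12.5, 10.001 and 11.4 FPKM in naive libraries and 10.4, 7.68 and 8.0 FPKM in control libraries, overlapping at control replicate 1, with a log2 fold change of 0.35 (SE 0.12, limma adjusted p 0.270). The other higher estimates with an unadjusted p under 0.05 were 0.20 for the calcium-activated Kcnn3, 0.40 for the silent subunit Kcng2, 0.40 for the auxiliary Kcne1l and 0.29 for Kcna3.

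Kcnn3 had 1.92, 1.96 and 1.92 FPKM in trained libraries, 2.53, 2.25 and 2.29 FPKM in naive libraries and 2.09, 1.73 and 1.96 FPKM in control libraries, so the naive libraries were the 3 highest. Kcng2 had 6.25, 4.64 and 4.55 FPKM in trained libraries, 6.70, 5.86 and 6.39 FPKM in naive libraries and 5.99, 3.88 and 4.02 FPKM in control libraries, with replicate 1 of the trained and of the control group near the naive level. Kcnc4, a Kv3 pore, showed the same spread at 17.2, 14.9 and 13.1 FPKM in trained libraries, 21.2, 15.8 and 21.7 FPKM in naive libraries and 18.5, 15.0 and 10.7 FPKM in control libraries, and its log2 fold change of 0.40 (SE 0.19) had an unadjusted limma p of 0.0645. Control replicate 1 was the highest control in Kcnn3, Kcng2 and Kcnc4.

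Many of these estimates were smaller when the dentate granule markers entered the fit. Those markers themselves had higher estimates in naive than in control libraries, so the fit cannot tell their part from that of the group. The median SE over the 63 genes was 0.116 with them and 0.103 without them. With the mean of those markers per library as a covariate, 6 of the 63 genes had an unadjusted limma p under 0.05 in naive against control, 3 of them higher and 3 lower, where 18 had one without it. That is 9.52% of the family, where the share over all genes was 13.2% with the covariate and 15.5% without it. The fold changes of the 18 did not all shrink. With the covariate 7 were under 50% of their size, 9 lay between 50% and 100% of it and 2 were larger, while none changed sign and 3 still had a p under 0.05. The log2 fold change was then 0.03 for Kcng1, 0.01 for Kcng2, 0.04 for Kcnd3, -0.12 for Kcnq5, -0.18 for Kcnab3 and -0.03 for Kcnj10. Kcne1l was at 0.72 with the covariate (unadjusted limma p 0.00126), against 0.40 without it. Kcnk12 at -0.22 (unadjusted limma p 0.0789) and Kcnma1 at -0.14 (0.126) were near their size without the covariate, though no longer under 0.05. Kcnh7 was at -0.24 with an unadjusted limma p of 0.0506, while Kcnn2 was at -0.19 with a p under 0.05. With the CA1 pyramidal markers as covariate the count was 8, or 12.7% of the family, where the share over all genes was 11.1%, and 1 of the 18 fold changes was under 50% of its size. In naive against control, Kcnn2 had an unadjusted limma p under 0.05 in all 19 alternatives run, with log2 fold changes between -0.28 and -0.19. Kcnh7 lost it in 1 of the 19, the dentate covariate. The part of the dentate and CA1 cells in these differences was not tested further.

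**Figure D3:**
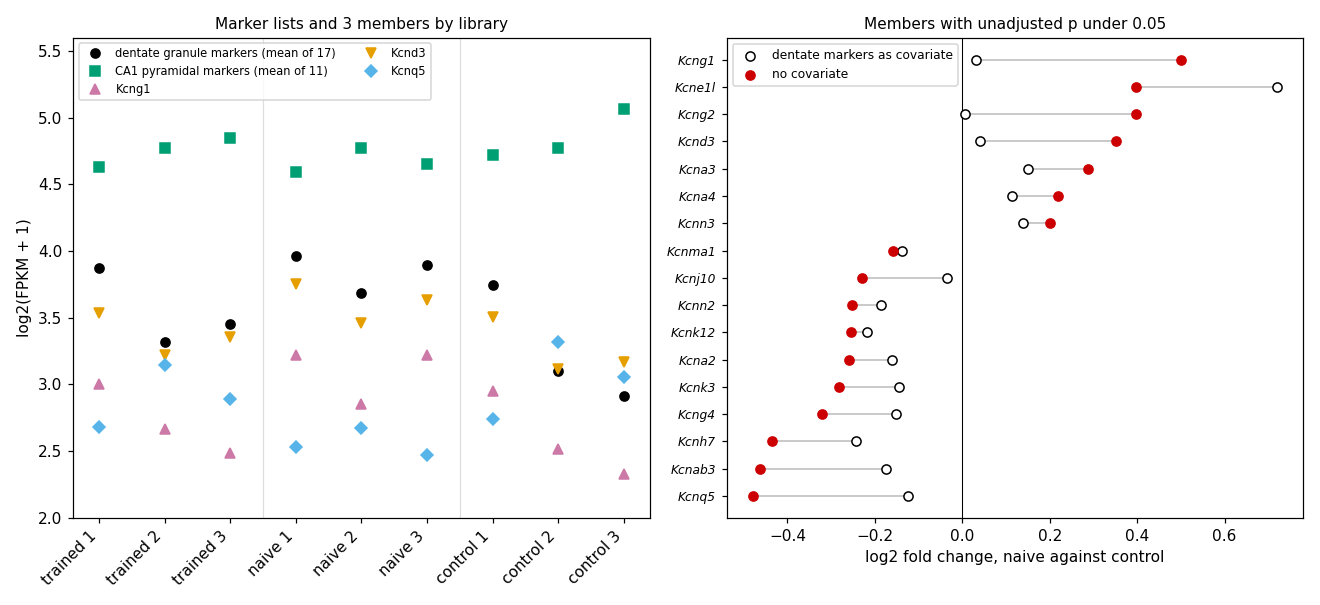
Left, mean log2(FPKM + 1) of 17 dentate granule markers and of 11 CA1 pyramidal markers in each library of trained, naive and control mice. The same panel gives log2(FPKM + 1) of Kcng1, Kcnd3 and Kcnq5. Right, log2 fold change in naive against control of the members with an unadjusted p under 0.05, without a covariate (filled) and with the dentate markers as covariate (open): Kcng1 is at 0.50 without and 0.03 with the covariate, and Kcnn2 at -0.25 without and -0.19 with it.

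The count also depended on single libraries. Of the 4 libraries that moved it by more than 1.5 times, control replicate 1 gave 30 when left out, control replicate 2 gave 9, control replicate 3 gave 11 and naive replicate 1 gave 10. The share over all genes moved the same way and was 22.1%, 9.75%, 11.6% and 12.1% in that order, beside 47.6%, 14.3%, 17.5% and 15.9% of the family. Leaving out control replicate 2 brought Kcna2 to -0.16, Kcnj10 to -0.15, Kcnab3 to -0.29 and Kcnq5 to -0.34, each with an unadjusted limma p above 0.05. Kcng1, Kcng2 and Kcnd3 were above 0.05 without any 1 of naive replicates 1 and 3 and control replicates 2 and 3. Control replicate 1 had the highest mean of the dentate markers among the control libraries, at 3.74 on the log2(FPKM + 1) scale against 3.10 and 2.91 in the other two.

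The promoters of Kcnh7, Kcnk12, Kcna2 and Kcna4 are printed because H2A.Z is found at promoters, and these 4 of the genes just described, chosen after their values were seen, have 1 promoter each in the RefSeq table (GRCm38.p6; 250 bases before to 50 after the start, 5′ to 3′ on the strand of the gene). Capitals mark the GC box GGGCGG or its other strand CCGCCC, a motif of CpG-rich promoters.
Kcnh7 (chr2:63184238-63184537, minus strand): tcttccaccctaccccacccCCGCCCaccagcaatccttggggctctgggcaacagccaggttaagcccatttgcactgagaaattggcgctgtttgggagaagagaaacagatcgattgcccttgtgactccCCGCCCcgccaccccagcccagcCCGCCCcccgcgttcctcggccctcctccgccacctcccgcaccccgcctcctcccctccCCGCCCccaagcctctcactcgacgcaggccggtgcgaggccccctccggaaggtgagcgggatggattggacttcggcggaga
Kcnk12 (chr17:87797945-87798244, minus strand): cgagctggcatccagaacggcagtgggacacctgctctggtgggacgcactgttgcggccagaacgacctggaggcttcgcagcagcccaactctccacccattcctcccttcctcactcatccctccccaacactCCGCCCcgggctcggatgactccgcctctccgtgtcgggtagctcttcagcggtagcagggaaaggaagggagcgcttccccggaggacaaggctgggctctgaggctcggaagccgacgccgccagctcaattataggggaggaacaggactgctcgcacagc
Kcna2 (chr3:107101317-107101616, plus strand): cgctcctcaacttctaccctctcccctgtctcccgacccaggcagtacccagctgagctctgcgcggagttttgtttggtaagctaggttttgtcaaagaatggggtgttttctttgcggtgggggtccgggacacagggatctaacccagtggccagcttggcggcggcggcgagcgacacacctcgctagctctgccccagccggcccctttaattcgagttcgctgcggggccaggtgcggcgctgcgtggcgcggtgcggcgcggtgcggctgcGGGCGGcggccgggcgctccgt
Kcna4 (chr2:107290339-107290638, plus strand): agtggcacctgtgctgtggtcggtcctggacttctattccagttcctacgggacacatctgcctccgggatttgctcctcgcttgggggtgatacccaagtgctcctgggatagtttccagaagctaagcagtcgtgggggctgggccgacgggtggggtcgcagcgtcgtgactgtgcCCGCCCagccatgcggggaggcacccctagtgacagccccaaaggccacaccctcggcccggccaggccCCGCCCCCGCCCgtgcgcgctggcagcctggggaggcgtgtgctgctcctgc
The Kcnh7 window held 4 GC boxes and 21 CpG dinucleotides, that of Kcnk12 held 1 and 20, that of Kcna2 held 1 and 31, and that of Kcna4 held 3 and 20. The GENCODE M21 annotation starts Kcna2 at 107101146, so the printed Kcna2 window lies inside that gene model. It starts Kcna4 at 107290639, so the whole printed Kcna4 window lies before that start. RefSeq and GENCODE differ for both genes. A GC box was present in 35.7% of all 32851 promoters of the table, and in 49.3% of the 67 promoters listed for 44 genes of the family. The median number of CpG dinucleotides was 7 over all promoters and 10 over those 67. Genes with lower and higher estimates both carried the motif, and a match is a description of the letters only. A comparison over the whole family was void, since 44 of the 63 genes had a promoter in the table.

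The trained group set against the control group sets the H2A.Z hairpin with training beside the scrambled hairpin. Whether the control mice were trained is not stated. Hairpin and training therefore cannot be told apart here or in naive against control. Kcnk12 was lower in every trained library than in every control library. None of the 63 passed an adjusted p of 0.05 in limma, where 1 of 12327 genes (0.00811%) passed, and the smallest adjusted p in the family was 0.637. At an unadjusted limma p under 0.05, 6 genes differed (background 7.71%), 5 of them lower (background 3.8%) and 1 higher (background 3.92%), against 5 lower and 0 higher with quantile normalization, where the shares over all genes were 4.17% lower and 3.67% higher. Estimates were above 0 in 26 of the 63 genes (background 47.2%). The count was 16 without control replicate 1, 12 without trained replicate 2, 2 without trained replicate 1 or control replicate 3, and 1 without trained replicate 3 or control replicate 2. Over all genes the share was 18.3% without control replicate 1, 10.2% without trained replicate 2 and between 4.46% and 5.01% without each of the other 4. The trained libraries lay below all controls in 2 genes (background 6.08%) and above them in 1, Kcnh3 (background 6.4%). The median log2 fold change was -0.02 in the family and -0.01 over all genes.

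The estimates were -0.25 (SE 0.09) for Kcnj10, -0.20 (SE 0.08) for Kcnk12, -0.24 (SE 0.10) for Kcna2 and -0.25 (SE 0.10) for Kcnip3, with limma adjusted p between 0.637 and 0.642. Kcna4 was at 0.16 (SE 0.07). Kcnip3 averaged 22.4 ± 3.27 FPKM in trained libraries, 24.4 ± 1.07 FPKM in naive libraries and 26.7 ± 2.90 FPKM in control libraries (SD, n = 3 each), with overlap of all groups. Kcnj10 had 27.1, 31.9 and 28.1 FPKM in trained libraries, 27.6, 31.9 and 29.2 FPKM in naive libraries and 31.0, 38.9 and 34.9 FPKM in control libraries, so both hairpin groups reached above the lowest control. Its partner in astrocytes, Kcnj16, averaged 3.71 ± 0.555 FPKM in trained libraries, 4.48 ± 0.563 FPKM in naive libraries and 3.99 ± 0.415 FPKM in control libraries (SD, n = 3 each). The sum of 14 astrocyte markers was 1311 to 1437 FPKM in trained libraries, 1407 to 1611 FPKM in naive libraries and 1314 to 1429 FPKM in control libraries. This comparison shares its control libraries with the one before, so the 2 are not independent.

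The trained group set against the naive group holds the hairpin constant. Kcnh7 and Kcnn2 were higher in every trained library than in every naive library, and Kcnk10, a leak channel, was lower in every one. None of the 63 passed an adjusted p of 0.05 in limma, where 1 of 12327 genes (0.00811%) passed, and the smallest adjusted p in the family was 0.556. At an unadjusted limma p under 0.05, 7 genes differed (background 8.27%), 4 of them higher (background 2.74%) and 3 lower (background 5.53%). Median-of-ratios scaling gave 6 higher and 2 lower, where the shares over all genes were 4% higher and 4.21% lower. Quantile normalization gave 9 higher and 1 lower, where they were 5.1% higher and 3.57% lower. Over all genes the direction turned with quantile normalization, while the family had more higher than lower genes in these settings. In others it had more lower than higher genes. Array quality weights gave 7 higher and 10 lower, where the shares over all genes were 5% and 10.6%. The CA1 covariate gave 4 and 7, where they were 2.6% and 6.86%. Leaving out naive replicate 2 gave 3 and 7, where they were 2.52% and 4.88%. Without naive replicate 3, trained replicate 2 or control replicate 1, lower genes also outnumbered higher ones. Estimates were above 0 in 35 of the 63 genes (background 41.3%). The count was 3 without trained replicate 3 and 11 without control replicate 1, which enters through the shared spread, and the share over all genes was then 4.08% and 10.1%. The trained libraries lay above all naive libraries in 10 genes (background 5.79%) and below them in 4 (background 9.16%). The median log2 fold change was 0.01 in the family and -0.02 over all genes, and in the family it was -0.00504 without naive replicate 3 and -0.00118 with the dentate covariate, so its sign is not settled.

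Kcnh7 was at a log2 fold change of 0.42 (SE 0.10) and Kcnn2 at 0.22 (SE 0.06), each with a limma adjusted p of 0.556. With the dentate markers as covariate these were 0.33 and 0.19, and over all 19 alternatives each had an unadjusted limma p under 0.05. Kcnq3 had 23.5, 22.9 and 24.9 FPKM in trained libraries, 21.2, 21.9 and 16.6 FPKM in naive libraries and 21.9, 21.9 and 24.8 FPKM in control libraries, with a trained against naive log2 fold change of 0.25 (SE 0.10, limma adjusted p 0.591). Naive replicate 3 was the lowest of the 9. Kcnj3, at 0.12 (SE 0.05), had 41.1, 41.6 and 40.8 FPKM in trained libraries, 38.7, 37.8 and 36.9 FPKM in naive libraries and 41.6, 37.2 and 36.5 FPKM in control libraries. The trained and naive libraries did not overlap, and control replicate 1 stood with the trained ones. Kcnk10 had 1.07, 1.33 and 1.27 FPKM in trained libraries, 1.96, 1.65 and 2.01 FPKM in naive libraries and 1.80, 1.27 and 1.20 FPKM in control libraries, with a log2 fold change of -0.37 (SE 0.11, limma adjusted p 0.556) for trained against naive. Kcnn3 was at -0.19 (SE 0.07) and Kcnmb4 at -0.18 (SE 0.08). This comparison shares its naive libraries with naive against control.

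**Figure D4:**
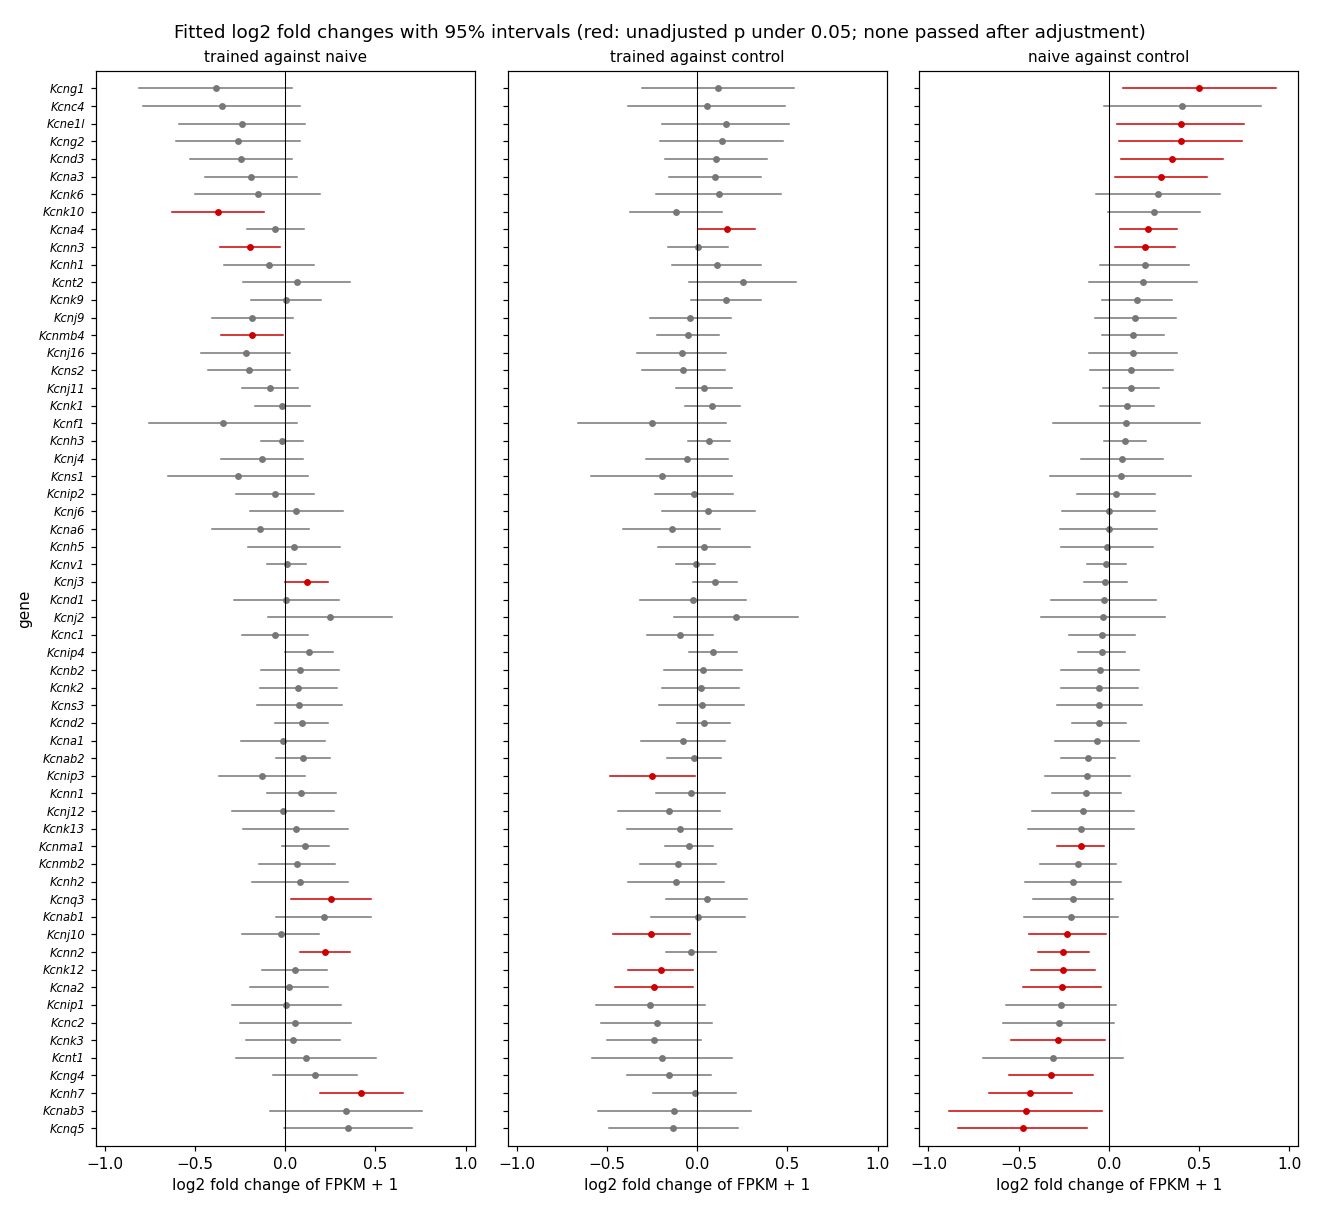
Log2 fold change of FPKM + 1 with its 95% interval for 60 of the 63 genes in trained against naive, trained against control and naive against control, ordered by the last; red marks an unadjusted limma p under 0.05. None passed after adjustment, and the counts in red are 7, 5 and 17.

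Both hairpin groups set against the control group gave 9 genes (background 12.4%), 8 lower (background 5.26%) and 1 higher (background 7.11%), at an unadjusted limma p under 0.05, and 0 at an adjusted p of 0.05 (background 0%). Estimates were above 0 in 27 of the 63 genes (background 52.1%). Kcnk12 was at -0.23 (SE 0.07, limma adjusted p 0.330), Kcna2 at -0.25 (SE 0.08, 0.350) and Kcna4 at 0.19 (SE 0.06, 0.342). Kcnj10, Kcng4, Kcnn2, Kcnk3 and Kcnh7 were also among the genes with lower estimates. The hairpin libraries all lay below the controls in 2 genes, Kcnk12 among them (background 2%), and in 0 genes all above (background 2.94%). The count was 25 without control replicate 1, 18 without trained replicate 2 and 3 without control replicate 2, where the share over all genes was 22.9%, 14.1% and 6.5%.

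By subfamily, the summed level of the calcium- and sodium-activated channels was 63.9, 67.6 and 67.3 FPKM in trained libraries, 60.4, 60.1 and 57.9 FPKM in naive libraries and 67.3, 67.0 and 66.9 FPKM in control libraries. The naive libraries were the 3 lowest, and Kcnn2 is the largest part of this sum. The sum of the silent Kv genes was 44.0, 43.9 and 39.4 FPKM in trained libraries, 51.1, 46.1 and 52.0 FPKM in naive libraries and 46.1, 45.01 and 42.6 FPKM in control libraries. It was higher in every naive library than in every trained library, and naive replicate 2 lay just below control replicate 1. These are 2 of 11 subfamily sums, chosen after their values were seen and given with no test.

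Ratios were taken between subunits that join in a channel. Kcnmb4 over Kcnma1 was 1.76, 1.85 and 1.74 in trained libraries, 2.06, 1.97 and 2.66 in naive libraries and 1.86, 1.88 and 1.64 in control libraries, so every naive library was above the other 6. Kcnip2 over Kcnd2, the auxiliary and the pore of the A-type channel, lay between 1.52 and 1.93 over the 9 libraries. These are 2 chosen from 12 ratios computed, with the values of all 12 at hand, and are given as a description with no test. The highest Kcnmb4 over Kcnma1 ratio, 2.66, was in naive replicate 3, the library with the lowest Kcnma1.

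Within 200 kb of each other and with no coding gene between them lay 4 pairs of members (GRCm38). In 3 of the 4 pairs the log2 fold changes in naive against control had opposite signs, and none passed an adjusted limma p of 0.05. Over the family 24 of the 63 estimates were above 0, and the median SE was 0.103. The pairs were not compared with pairs of genes that lie apart. Kcna3 and Kcna2, 63.1 kb apart on chromosome 3, were at 0.29 and -0.26. Kcnj9 and Kcnj10, 11.9 kb apart on chromosome 1, were at 0.15 and -0.23. Kcnj16 and Kcnj2 on chromosome 11 were at 0.13 and -0.03, and Kcna1 and Kcna6 on chromosome 6 at -0.07 and -0.00223. All 63 genes matched the GENCODE M21 annotation, on 18 chromosomes. Kcnh7 (chromosome 2, 62693414 to 63184287, minus strand) overlaps the coding gene Gca on the opposite strand, as 32 of the 63 overlap some gene there, and the sources used here do not say whether the authors' FPKM used the strand. Kcnn2 lies on chromosome 18 at 45268860 to 45686024 (plus strand) and Kcnk12 on chromosome 17 at 87745801 to 87797994 (minus strand).

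Of 50 partners of potassium channels outside the family, such as scaffolds and regulators, 47 were tested and none passed an adjusted limma p of 0.05 in any comparison. In naive against control 4 were higher and 2 lower at an unadjusted limma p under 0.05, and the median log2 fold change was -0.01. That is 8.51% higher and 4.26% lower, each below the share over all genes (9.81% and 5.69%). The partners named next are those with the smallest p. Snx27, which sorts G-protein-gated channels in endosomes, had 29.3, 28.8 and 29.0 FPKM in trained libraries, 28.4, 29.5 and 28.7 FPKM in naive libraries and 27.6, 25.5 and 26.7 FPKM in control libraries. All hairpin libraries were above all controls, with log2 fold changes of 0.12 (limma adjusted p 0.637) in trained and 0.11 (adjusted p 0.275) in naive mice. The ubiquitin ligases Nedd4 and Nedd4l were at 0.16 and 0.26, and Adam22, a partner of Kv1 complexes, at -0.09, in naive against control. In trained against naive, Flna, an actin-binding scaffold, was at 0.33 (limma adjusted p 0.556) and Adam23 at 0.21.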

How the data were processed

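RNA was measured in 9 CA1 libraries, 3 each of H2A.Z shRNA trained, H2A.Z shRNA naive and scrambled control mice, from 1 µg of RNA with RIN above 7.9, as 50 bp paired-end reads, per the labels' protocols. Per the submitters' processing notes, FastQC, TopHat 1.4.0, Cufflinks and Cuffdiff were used with mm10. The authors deposited FPKM values, 1 per gene and library, with no counts, so the number of fragments behind a value is unknown and its precision rests on the 3 replicates. The sources used here name neither the gene annotation nor the step that wrote the table.

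Of 24489 rows, 27 whose names had become dates and 5649 at 0 everywhere were left out. Values were taken as log2(FPKM + 1), a pseudocount of 1 that draws the fold changes of low genes toward 0. Genes averaging 1 FPKM or more, 12327 in all, were fitted with limma 3.58.1 in R 4.3.3 (3 groups, 6 residual degrees of freedom, and 2.72 from a trended prior), two-sided, with Benjamini-Hochberg adjustment over all genes of a comparison and a threshold of 0.05. Unadjusted counts are set beside the share of all genes tested, called the background. Tables and plots were made with Python 3.11.15, pandas 2.3.3, numpy 2.4.6 and matplotlib 3.10.9. The method was tested on simulated data.

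The members, marker lists and partner list were chosen with earlier results of these data known. Named genes were those with the highest levels of each subfamily, up to 10 per direction with an unadjusted p under 0.05, the 5 most and 5 least variable, those at the level limit, Kcnj10 and Kcnj16, and the partners with the smallest p. A few genes of the family enter the counts and sums but are not reported here by name or plotted. Alternatives were filters of 5 FPKM or none, a pseudocount of 0.1, median-of-ratios scaling, quantile normalization, array quality weights, a robust prior variance, only the groups compared, either marker covariate, and each library left out.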

Additional observations from a re-analysis of the deposited data

How the results depend on the processing

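No potassium channel gene passed an adjusted p of 0.05 under any alternative. Of the alternative values of named genes, 573 kept their side of an unadjusted p of 0.05, 175 were no longer under it, and none turned its direction. The count in naive against control, 18, was 28 with array quality weights, 6 with the dentate covariate, 8 with the CA1 covariate and 9 to 30 leaving out 1 library. In trained against control, 6, it was 14 with array quality weights, 3 with only the groups compared and 1 to 16 leaving out 1 library. In trained against naive, 7, it was 4 of the 42 members left by a filter of 5 FPKM (9.52%, beside 11.1% of all 63), 17 with array quality weights, 11 with only the groups compared, 11 with the CA1 covariate and 3 to 11 leaving out 1 library. In both against control, 9, it was 23 with array quality weights, 4 with the dentate covariate and 3 to 25 leaving out 1 library. With array quality weights the share over all genes rose as well. It was 20% in naive against control, 16.9% in trained against control, 15.6% in trained against naive and 19.8% in both against control. In that order the family had 44.4%, 22.2%, 27% and 36.5%. With only the groups compared, the share over all genes was 6.67% in trained against control, beside 4.76% of the family. In trained against naive it was 9.93%, beside 17.5%. There it was 9.47% with the CA1 covariate, beside 17.5%, and 8.13% with the filter of 5 FPKM. In both against control with the dentate covariate it was 10.1%, beside 6.35% of the family. The share did not move with every count. With the dentate covariate in naive against control it went from 15.5% to 13.2%, while the share of the family went from 28.6% to 9.52%. In trained against naive the count was 10 without naive replicate 2. The share over all genes was then 7.41%, against 8.27% with all libraries. The median log2 fold change in trained against naive was 0.0431 with quantile normalization, and in both against control it was -0.0553 to -0.00089 leaving out 1 library. The causes were not tested. Quantile normalization gave 5 higher and 15 lower in naive against control and 9 higher and 1 lower in trained against naive. In trained against control it gave 0 higher and 5 lower. In trained against naive, median-of-ratios scaling gave 6 higher and 2 lower, and array quality weights gave 7 higher and 10 lower. No paired analysis was possible because the labels number no replicates across groups. The number of fragments per gene is unknown, so no counting error was computed.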

Other observations

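Of the family rows left out, Kcnj13, an inward rectifier of the choroid plexus, had 0.636, 0.469 and 0.889 FPKM in trained libraries, 0.0724, 0.176 and 0.169 FPKM in naive libraries and 0.430, 0.996 and 6.71 FPKM in control libraries. Kcne2, below the level limit, had 0.233, 0.0484 and 0.438 FPKM in trained libraries, 0.0559, 0.0681 and 0.0982 FPKM in naive libraries and 0.194, 0.656 and 3.11 FPKM in control libraries. Both were highest in control replicate 3. The summed level of 6 choroid plexus and ependymal markers was 101.01 to 169 FPKM in trained libraries, 47.7 to 79.9 FPKM in naive libraries and 86.1 to 942 FPKM in control libraries. Kcnj8, of vessel-wall cells, had 1.25, 1.17 and 1.27 FPKM in trained libraries, 1.62, 1.37 and 1.38 FPKM in naive libraries and 1.53, 1.55 and 1.25 FPKM in control libraries.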
